A study of Mus musculus with 6 samples.

Results

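Cadherins and catenins are the adhesion proteins that act beside NCAM at contacts between neurons. Their transcripts were followed here through 10 genes in the brains of mice lacking NCAM, the neural cell adhesion molecule encoded by Ncam1. The genes were the cadherins Cdh2, Cdh4, Cdh5, Cdh8, Cdh11 and Cdh13 and the catenins Ctnnb1, Ctnna1, Ctnna2 and Ctnnd2. Every probe set whose annotation gave 1 of these symbols and no other was taken, which gave 15 of the 12422 probe sets on the array. A probe set is a group of short probes that together report 1 transcript.

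The animals were 6 male C57BL/6J mice in 2 groups. The NCAM-deficient (Ncam -/-) group carried a constitutive knockout of Ncam and had 3 animals, 2 of them aged 2 months (replicates 1 and 2) and 1 aged 3 months (replicate 3). The wild-type (Ncam +/+) group had 3 animals of the same genetic background and the same ages. The labels name no drug or other treatment, and RNA of each total brain went onto a separate Affymetrix array read in 1 colour. A constitutive knockout lacks the gene in all cells throughout life, so early and adult loss cannot be told apart, and in total brain fewer cells of a type and less RNA per cell cannot be told apart.

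Cadherins are membrane proteins that bind cadherins on the neighbouring cell when calcium is present. The tail of a classical cadherin binds beta-catenin or a close relative, beta-catenin binds alpha-catenin, and alpha-catenin connects the complex to actin. Catenins of the p120 family bind the tail nearer the membrane and hold the cadherin at the surface. In brain these complexes hold synaptic contacts and sort neurons into layers and nuclei, and beta-catenin that is not bound to a cadherin also carries Wnt signals to the nucleus.

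Log2 values of the 6 arrays correlated between 0.967 and 0.985 for any pair, and the number of arrays limits the precision. As a check of the labels, the brightest Ncam1 probe set read 276.2, 208.7 and 327.4 in knockout brains and 1346, 1448 and 1216 in wild-type brains (log2 difference -2.26 ± 0.15 SE, limma adjusted p = 0.00076). Of its 2 other probe sets, one read 71.2 to 100.9 in knockout brains, against 140.9 to 154.7 in wild-type brains (-0.68 ± 0.15, limma adjusted p = 0.416), and one was too dim to be tested. Pan-neuronal markers were bright on all arrays, with a summed signal of 27066 to 27369 in knockout brains, against 26852 to 27995 in wild-type brains. That of 6 oligodendrocyte markers was 11451 to 12383 in knockout brains, against 13040.3 to 13565 in wild-type brains. For 6 astrocyte markers it was 10928 to 12005 in knockout brains, against 12138 to 12509 in wild-type brains. Of these glial genes 0 were called in limma after adjustment, and microglial sums overlapped. The part of cell make-up in the cadherin and catenin values was not tested. Markers of brain regions and pituitary set 2 knockout arrays apart. The median of 10 cerebellar markers deviated from its mean over all arrays by -1.55 on the log2 scale in knockout replicate 2 and between 0.24 and 0.50 elsewhere. That of 6 pituitary markers was 2.07 in knockout replicate 1 and between -0.53 and -0.09 elsewhere.

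None of the cadherin and catenin genes was called higher or lower in knockout brains. Of the 15 probe sets 11, from 9 genes, were bright enough to be tested, the limit being a mean of 6.46 in log2(signal + 16). In limma, fitted over all 7453 tested probe sets with Benjamini and Hochberg's adjustment, 0 of the 11 passed an adjusted p of 0.05, where 2 of all tested probe sets (0.0268%) did. At an unadjusted p under 0.05 the count was also 0, against 6.94% of all tested probe sets. The lowest adjusted p was 0.743, for Cdh4. Knockout and wild-type signals overlapped for all 11 tested probe sets and also for the 4 that were too dim. Of all tested probe sets 12.9% had groups without overlap, and a count of 0 among 11 is near that share. Of the 11 log2 differences 7 were above and 4 below 0, with a median of 0.06, beside a median of 0.00 over all tested probe sets. Without knockout replicate 2, whose cerebellar signal was low, the median was -0.01 with 0 called, and it was also -0.01 without wild-type replicate 3. Without knockout replicate 1, whose pituitary signal was high, the median was 0.15 with 0 called. That fit set the brightness limit anew and held 12 of the 15 probe sets. Without wild-type replicate 2 the median was also 0.15, over 11 probe sets.

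**Figure D1:**
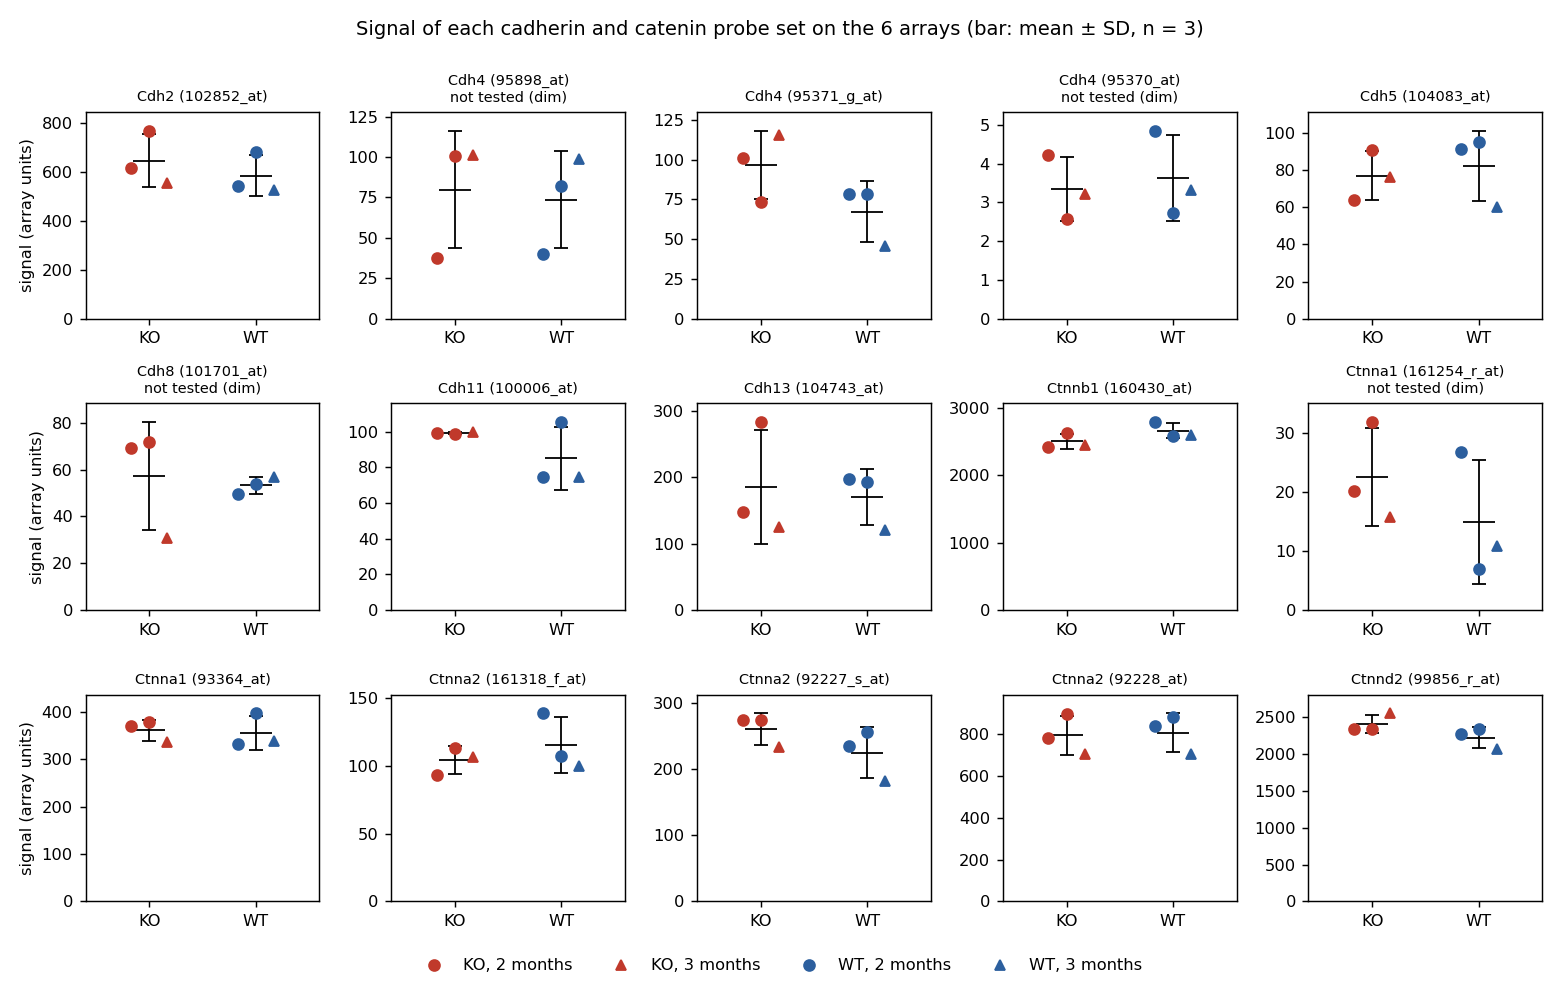
Signal in array units, from 0 upward, of the 15 cadherin and catenin probe sets in knockout (KO, red, left) and wild-type (WT, blue, right) brains. Circles are 2-month-old and triangles 3-month-old animals, in the order replicate 1, 2, 3, and the bars give mean ± SD (n = 3 per group). The red and blue points overlap in every panel.

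The precision allowed a bound to be set for most of the tested probe sets, in a share near that of all tested probe sets. The 95% interval of the knockout to wild-type fold, on the log2(signal + 16) scale, lay inside 1.5-fold in either direction for 9 of the 11 tested probe sets, where 83.2% of all tested probe sets did so. The exceptions were Cdh4 and Cdh13, and Cdh11 was inside only narrowly, with an upper end of 0.58 on the log2 scale. Such an interval limits the size of a difference and does not show that the groups were equal.

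**Figure D2:**
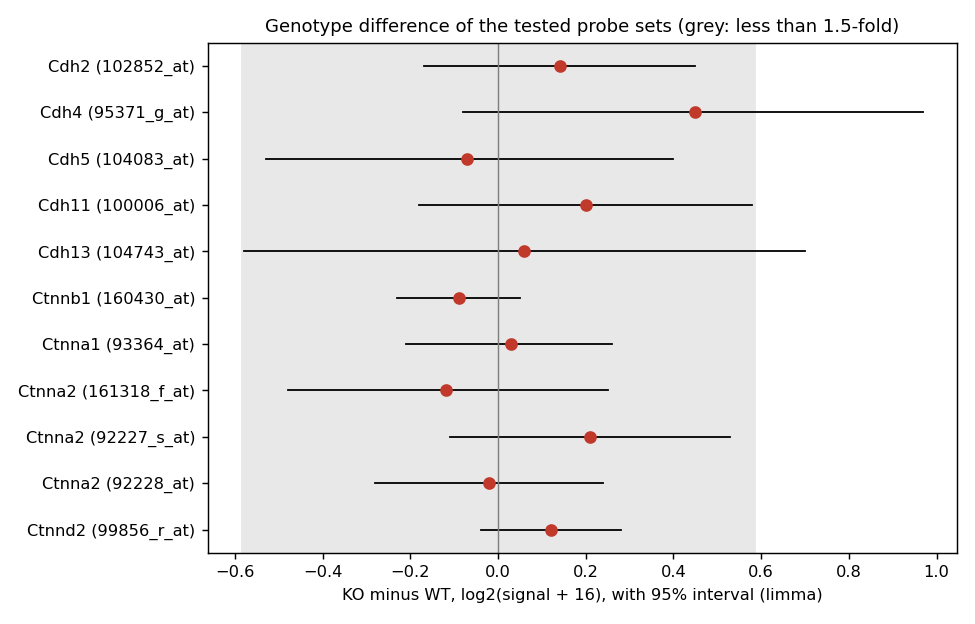
Knockout minus wild-type difference in log2(signal + 16) of the 11 tested probe sets, with 95% intervals from limma. The grey band marks less than 1.5-fold in either direction; the intervals of Cdh4, from -0.08 to 0.97, and of Cdh13, from -0.58 to 0.70, run past it, and all 11 include 0.

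Cdh2 encodes N-cadherin, the main classical cadherin of neurons and their progenitors. Its probe set read 616.7, 770.2 and 556.6 in knockout brains and 544.7, 682.4 and 528.4 in wild-type brains. In each genotype replicate 2 was the highest, and the groups overlapped. The log2 difference was 0.14 ± 0.14 (SE; limma adjusted p = 0.849), with a fold between 0.886 and 1.37. It was 0.01 without knockout replicate 2, 0.09 without wild-type replicate 1 and 0.07 without wild-type replicate 3, and 0.24 without knockout replicate 3 and 0.25 without wild-type replicate 2.

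Cdh4 encodes R-cadherin, a classical cadherin first described in retina, and had the widest disagreement between probe sets. The tested one, of the kind marked _g_at, read 101.1, 73.6 and 115.9 in knockout brains and 78.2, 78.6 and 45.5 in wild-type brains. The lowest value was that of the 3-month-old wild-type animal, and the knockout animal with low cerebellar signal lay inside the wild-type range. Its log2 difference of 0.45 ± 0.23 did not pass (unadjusted p = 0.0863, adjusted p = 0.743 in limma). It was 0.60 without knockout replicate 2 (unadjusted p = 0.0376 in limma, adjusted p = 0.503) and 0.24 without wild-type replicate 3.

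A second Cdh4 probe set stood just under the brightness limit and showed another pattern. It read 37.8, 100.8 and 101.1 in knockout brains and 40.2, 82.2 and 98.7 in wild-type brains. Replicate 1 was the lowest of each genotype, and the difference in a fit without the filter was 0.07 ± 0.38. The other one was among the dimmest, at 2.58 to 4.22 in knockout brains, against 2.72 to 4.85 in wild-type brains.

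Cdh5 encodes VE-cadherin, the cadherin of endothelial junctions, and so reports on blood vessels more than on neurons. It read 64.2, 90.7 and 76.6 in knockout brains and 91.4, 95.1 and 60.4 in wild-type brains, with knockout replicate 1 and wild-type replicate 3 the lowest of their groups. The log2 difference was -0.07 ± 0.21 (limma adjusted p = 0.965). Of 13 endothelial markers listed, 8 were bright enough to be tested, with 4 higher and 4 lower values, 0 called and a median difference of -0.03. Their summed signal was 1668 to 1945 in knockout brains, against 1777 to 2001 in wild-type brains.

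Cdh8 and Cdh11 encode type II cadherins, which mark subsets of neurons and, for Cdh11, also mesenchymal cells. In the mouse gene order of RefSeq (GRCm38.p6), Cdh8, Cdh11 and Cdh5 follow one another on 1 chromosome with 0 other protein-coding genes between neighbours. Cdh11 read 99.1, 98.5 and 99.6 in knockout brains and 74.8, 105.4 and 74.8 in wild-type brains. The knockout values were nearly equal and lay inside the wild-type spread (log2 difference 0.20 ± 0.17, limma adjusted p = 0.825). Cdh8 was too dim to be tested. It read 69.5, 71.8 and 30.8 in knockout brains and 49.5, 53.7 and 56.7 in wild-type brains, so that the wild-type animals lay between the knockout animals. Its difference in a fit without the filter was 0.03 ± 0.27.

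Cdh13 encodes T-cadherin, which is anchored in the membrane by a lipid and has no tail to bind catenins. It varied more between animals than 96.5% of the tested genes, with a range of 1.12 on the log2 scale over the 6 arrays. The signals were 147.7, 282.7 and 124.4 in knockout brains and 196.6, 192.0 and 121.0 in wild-type brains. The highest was knockout replicate 2, and the 3-month-old animal was the lowest of each genotype. The genotype difference was 0.06 ± 0.28 (limma adjusted p = 0.978), and it was -0.27 without knockout replicate 2, 0.28 without knockout replicate 3 and -0.15 without wild-type replicate 3. In knockout replicate 2 the summed signal of 7 markers of cortex and hippocampus was 6008, against 4631 to 5204 on the other arrays, and that of 3 striatal markers 6334 against 5223 to 5403. The part of these regions in the Cdh13 signal was not tested.

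Ctnnb1 encodes beta-catenin, which joins cadherin tails to alpha-catenin and acts in Wnt signalling. It was among the steadiest genes, with a range of 0.20 on the log2 scale over the 6 arrays, narrower than that of all but 11.4% of the tested genes. The probe set read 2429.5, 2629 and 2458 in knockout brains and 2794, 2590.3 and 2606 in wild-type brains. Of the knockout animals 2 lay below every wild-type animal, and knockout replicate 2 lay inside their range. The log2 difference was -0.09 ± 0.06 (limma adjusted p = 0.802), and the 95% interval of the fold reached down to 0.853 and up to 1.04. Ctnnb1 lies on the chromosome of Ncam1 with 670 protein-coding genes between them.

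Ctnna1 encodes alpha-E-catenin, the widely expressed alpha-catenin. It read 370.0, 377.3 and 335.4 in knockout brains and 330.9, 396.4 and 337.4 in wild-type brains. The groups lay within the same range, with a log2 difference of 0.03 ± 0.10 (limma adjusted p = 0.976). A second, dim probe set of the kind marked _r_at read 15.8 to 31.8 in knockout brains, against 7.01 to 26.8 in wild-type brains, and was not tested.

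Ctnna2 encodes alpha-N-catenin, the alpha-catenin of neurons, and had 3 tested probe sets that did not share a direction. The brightest read 782.6, 895.0 and 705.6 in knockout brains and 837.5, 881.3 and 703.9 in wild-type brains (log2 difference -0.02 ± 0.11, limma adjusted p = 0.979). The one marked _s_at read 274.8, 274.1 and 233.3 against 235.8, 256.7 and 181.9 (0.21 ± 0.14, limma adjusted p = 0.790). The one marked _f_at read 93.0, 113.4 and 106.8 against 138.6, 107.1 and 99.8 (-0.12 ± 0.16). Such suffixes stand for a lower specificity or a smaller set of probes. In both of the brighter probe sets the 3-month-old animal was the lowest of its genotype.

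Ctnnd2 encodes delta-catenin, a neuronal member of the p120 family found at synapses. It read 2339.9, 2348 and 2555 in knockout brains and 2274, 2341 and 2067 in wild-type brains. The groups overlapped narrowly, with knockout replicates 2 and 3 above every wild-type animal and replicate 1 just under the highest. The log2 difference was 0.12 ± 0.07 (limma adjusted p = 0.763), and the 95% interval of the fold ended at 0.970 and 1.21. The only Ctnnd2 probe set is of the _r_at kind.

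A pattern across the cadherins and catenins, noticed after their values had been seen, ran with single arrays and with age. Wild-type replicate 3 had the lowest value of the 6 arrays for 8 of the 11 tested probe sets, whereas it was the lowest for 18.9% of all tested probe sets. In a limma fit with genotype and age, all 11 log2 differences of 3-month minus 2-month animals were below 0, against 48.9% of all tested probe sets. Their median was -0.13, beside 0.00 over all tested probe sets. Over the 11 probe sets 0 passed an adjusted p of 0.05 in that fit (lowest 0.282), where 0.0268% of all tested probe sets did.

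Cdh13 and Ctnna2 stood lowest in p for age. At an unadjusted p under 0.05, 3 of the 11 probe sets were lower in 3-month-old animals, against 6.09% of all tested probe sets. Cdh13 had an age difference of -0.64 ± 0.22, the brightest Ctnna2 probe set -0.26 ± 0.08 and the _s_at one -0.31 ± 0.10 (limma adjusted p = 0.319, 0.282 and 0.310). In these 3, both 3-month-old animals lay below all 2-month-old animals, an order that 10.3% of all tested probe sets showed. Cdh2 followed at -0.25 ± 0.12, whereas Ctnnb1 and Ctnnd2 had -0.04 ± 0.06 and -0.02 ± 0.07.

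How far the age pattern rested on wild-type replicate 3 was seen by leaving out single arrays. Without it, 6 of the 11 age differences were below 0, the median was -0.04, and 0 reached an unadjusted p of 0.05 in limma (0 also after adjustment). In that fit 48.8% of all tested probe sets had differences below 0, with a median of 0.01, and 10.6% reached an unadjusted p of 0.05. Without knockout replicate 2 all 11 were below 0, with a median of -0.18, against 49.5% and a median of 0.00 over all tested probe sets. Without wild-type replicate 2, 9 of the 11 were below 0, with a median of -0.15, against 48.8% of all tested probe sets. Over these 6 fits the age difference of Cdh13 ran from -0.82 to -0.45. That of Cdh2 ran from -0.33 to -0.18 and that of the brightest Ctnna2 probe set from -0.31 to -0.22. For Cdh13, Cdh2 and this Ctnna2 probe set the sign could not change, as the 3-month-old animal was the lowest of each genotype. Each genotype had 1 animal of 3 months, and age cannot be told apart from replicate number. As a measure of RNA quality, the 3' over 5' signal of the Gapdh control entries was 0.812 and 0.768 in the 3-month-old knockout and wild-type animals, against 0.779 to 0.826 in the 2-month-old animals. That of the actin control entries was 1.14 and 1.20 in the 3-month-old knockout and wild-type animals, against 1.08 to 1.22 in the 2-month-old animals, so wild-type replicate 3 had the lowest Gapdh ratio of all arrays but the highest actin ratio of the wild-type arrays. The part of RNA quality in the age pattern was not tested.

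**Figure D3:**
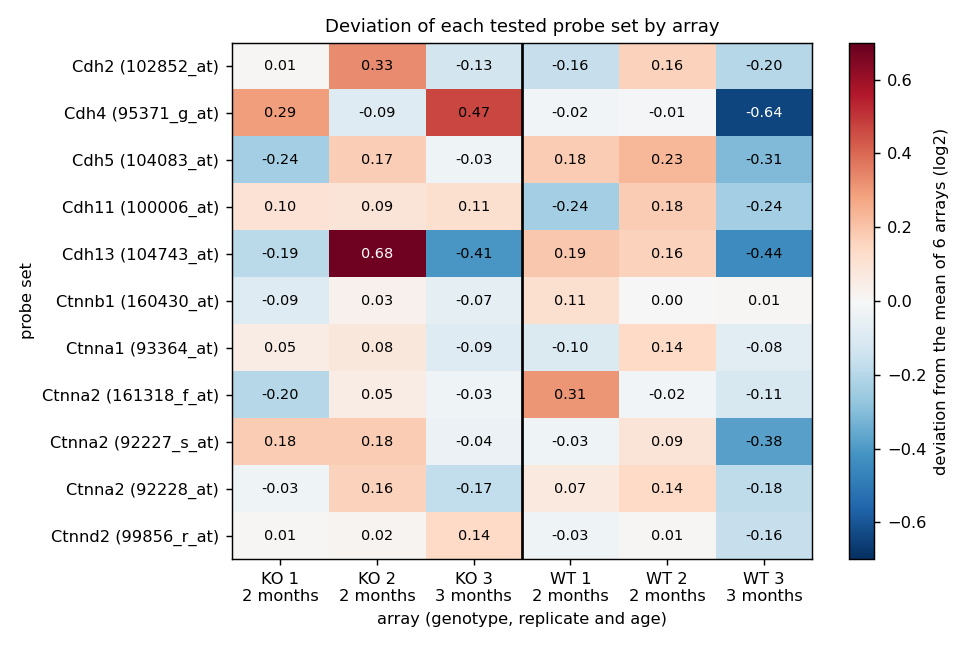
Deviation of each of the 11 tested probe sets from its mean over 6 arrays, in log2 units, for knockout (KO, left of the line) and wild-type (WT) arrays with the age of each animal. Wild-type replicate 3 is the lowest array in 8 rows, and Cdh13 reaches 0.68 in knockout replicate 2.

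The difference between genotypes was also compared between the ages, in a limma fit with an interaction term. Over the 11 probe sets 0 passed after adjustment, where 0.0268% of all tested probe sets did. At an unadjusted p under 0.05 there were 2, Cdh4 and Ctnnd2, against 5.70% of all tested probe sets. For Cdh4 the knockout minus wild-type difference was larger at 3 than at 2 months by 0.98 ± 0.37 (limma adjusted p = 0.824), and for Ctnnd2 by 0.28 ± 0.11 (limma adjusted p = 0.857). Both rest on 1 animal per genotype at 3 months. In both genes knockout replicate 3 was the highest and wild-type replicate 3 the lowest array, and their log2 values correlated at 0.93 over the 6 arrays. The Cdh4 probe set just under the brightness limit read 101.1 in the 3-month-old knockout animal and 98.7 in the wild-type one.

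The genes whose levels ran most like the widest-ranging members over the 6 arrays were named by Pearson's r of log2 values, as a description of these arrays. For Cdh13 these were Myt1l (0.994), Acvr2a (0.983) and Snx10 (0.982). Myt1l, a neuronal transcription factor, read 731.6, 933.3 and 655.9 in knockout brains and 810.0, 796.3 and 673.7 in wild-type brains, highest in knockout replicate 2 as Cdh13 was and lowest in the 3-month-old animal of each genotype. For Cdh4 they were Cisd1 (0.985), Nup50 (0.985) and Krt84 (0.984), and for Cdh5 Gmfb (0.988), Alg2 (0.985) and Pabpn1 (0.983). The likeness was searched among 5665 genes over only 6 arrays, and the arrays share their scaling.

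The other genes of cadherin adhesion and beta-catenin signalling also gave 0 calls in limma after adjustment, where 0.0177% of all tested genes passed. Of 186 listed genes 84 were tested by their brightest probe set, 50 with higher and 34 with lower values and a median log2 difference of 0.04. At an unadjusted p under 0.05 in limma, 7 were higher and 1 was lower, together 9.52% of the 84. Of all 5665 tested genes 6.78% reached that p, 3.11% with higher and 3.67% with lower values. The lowest adjusted p was 0.585.

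Other cadherins had 5 higher and 2 lower values among 7 tested genes, with a median of 0.17. Celsr2, a large cadherin of planar cell polarity, read 308.9, 298.6 and 288.4 in knockout brains and 264.5, 254.5 and 227.0 in wild-type brains, without overlap (0.25 ± 0.10, limma adjusted p = 0.719). A second Celsr2 probe set had -0.16 ± 0.31. Cdh3, which encodes P-cadherin, read 269.2, 269.4 and 322.2 against 218.7, 222.3 and 256.3 (0.28 ± 0.12, limma adjusted p = 0.719). A dimmer Cdh3 probe set ran the opposite way, with 43.7 to 50.3 in knockout brains, against 57.5 to 76.8 in wild-type brains. Other catenins had 4 higher and 1 lower values among 5 genes, with a median of 0.05. Among them Pkp4, of the p120 family, had -0.09 ± 0.07 and Pkp2, a desmosomal relative, 0.17 ± 0.20.

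Partners of the junction, at the actin side and elsewhere, were evenly divided, with 8 higher and 8 lower values and a median of 0.04. Actn1, the actin cross-linker alpha-actinin, read 812.7, 1014 and 823.3 in knockout brains and 716.2, 752.7 and 684.6 in wild-type brains by a probe set of the _f_at kind (0.29 ± 0.10, limma adjusted p = 0.664). Its 2 other probe sets had 0.37 ± 0.20 and -0.05 ± 0.19. Rac1, a GTPase that steers actin at contacts, read 5728, 6067 and 6282 against 6959.8, 6496 and 6436 (-0.14 ± 0.06, limma adjusted p = 0.719). Proteases that cleave cadherins or lie beside that pathway had 7 higher and 3 lower values among 10 genes and a median of 0.09, with Adam9 at 0.15 ± 0.12 and Mmp14 at 0.13 ± 0.13.

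On the signalling side, components of the complex that marks beta-catenin for degradation had 7 higher and 8 lower values and a median of -0.03. Csnk1a1, the kinase that primes beta-catenin for degradation, had the lowest p of all these genes. It read 1861, 1514 and 1784 in knockout brains and 1486, 1399.6 and 1292 in wild-type brains, without overlap (0.30 ± 0.09, unadjusted p = 0.0107, adjusted p = 0.585 in limma). A second Csnk1a1 probe set read 1386, 1470.4 and 1186 against 1331, 1406 and 1157 (0.05 ± 0.10), with overlap. Ppp2r1a, the scaffold of protein phosphatase 2A, had -0.11 ± 0.05.

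Wnt ligands, receptors and their inhibitors had 9 higher and 6 lower values among 15 tested genes, with a median of 0.05. Lrp6, a Wnt co-receptor, read 353.4, 268.8 and 385.3 in knockout brains and 294.0, 247.1 and 225.1 in wild-type brains (0.37 ± 0.15, limma adjusted p = 0.719), and Wnt10a, a ligand, had 0.23 ± 0.13. Nuclear partners of beta-catenin had 6 higher and 6 lower values, a median of -0.02, and as members with the lowest p the co-repressor Tle1 (0.34 ± 0.15) and its short relative Tle5 (-0.10 ± 0.06). Of 6 tested genes among the known Wnt targets 5 had higher values, with a median of 0.06. Ccnd1, the cell cycle regulator cyclin D1, read 644.4, 537.1 and 614.0 against 490.2, 425.6 and 510.5 (0.32 ± 0.10, limma adjusted p = 0.632), and its dimmer probe set had -0.16 ± 0.24. Jun, a transcription factor and the next by p, had 0.12 ± 0.17.

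**Figure D4:**
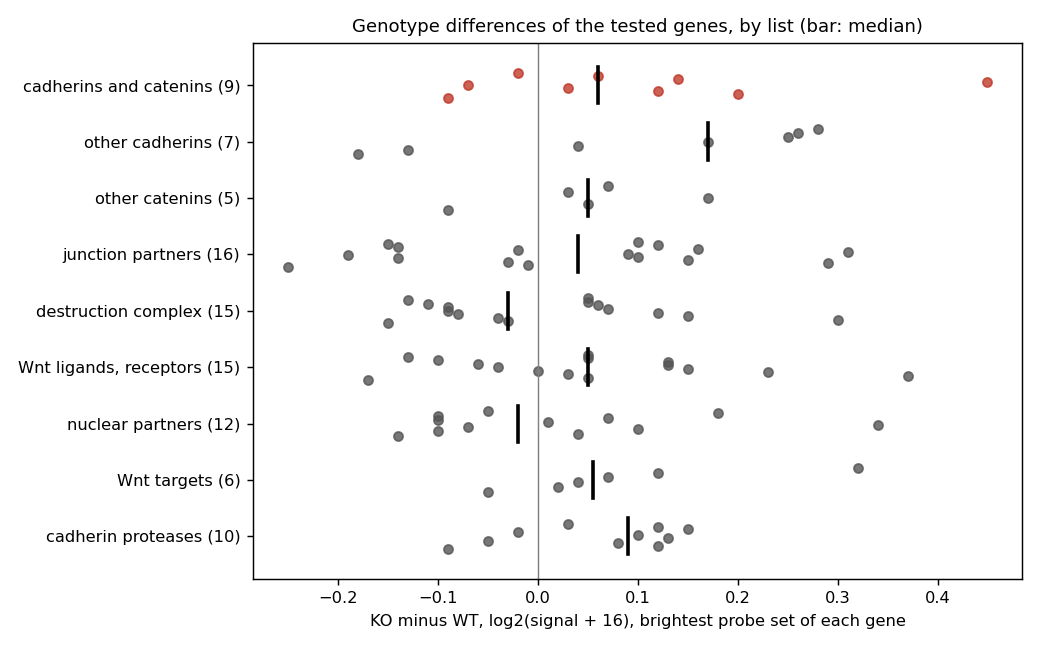
Knockout minus wild-type difference in log2(signal + 16) of the brightest probe set of each tested gene, for the cadherins and catenins (red) and 8 lists of related genes (grey), with the number of genes in brackets and black bars for medians. All medians lie between -0.03 and 0.17, and no gene passed the adjusted test.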

How the data were processed

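Biotinylated cRNA from total RNA of 6 brains was read on Affymetrix arrays in 1 colour, per the labels' protocols. Each deposited value is the linear intensity of a probe set, scaled by the authors to 1 level per array as far as the values show. The submitters' processing notes name GCOS 1.4, without an algorithm or its settings, which are therefore unknown here. No detection calls were used. Leaving out 66 control entries gave 12422 probe sets. The platform annotation, of which some may be outdated, had 1 gene symbol for 10833 of them, several for 396 and none for 1193. All 10 symbols matched the RefSeq gene table (GRCm38.p6) by Entrez identifier.

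The scale was log2(signal + 16), which understates the fold of dim genes. Probe sets at or above the 40th percentile of mean log2 value (6.46, a signal of 72.2) were tested, 7453 in all, with limma 3.58.1 in R 4.3.3 (lmFit, eBayes with intensity trend, two-sided) and Benjamini and Hochberg's adjustment over all of them. Separate fits added age, or age and its interaction with genotype. Where a gene had several probe sets, the brightest stood for it in lists. The procedure was tested on simulated data with independent noise, where recovery was required only for differences larger than any seen in the members. Effects of single arrays were not simulated. Exact permutation tests of 3 against 3 animals cannot go below p = 0.1. Groups came from the titles in the labels, and each array is 1 animal.

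The members and lists were chosen with earlier results of these data known. Named were every probe set of the members and of Ncam1, the 2 genes of each list with the lowest p, and the 3 genes most correlated with each of the 3 members of widest range. Same-numbered animals of the 2 genotypes had correlations of deviations from their group means of 0.01, 0.15 and 0.20. Those of differently numbered animals lay between -0.22 and 0.08. The labels state no pairs, and same-numbered animals were not treated as pairs in the main fit. Alternatives were the replicate block, age, the 2-month-old animals by themselves, leaving out each array, other normalisations, pseudocounts, filters and variance models, and averaging the probe sets of a gene.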

Additional observations from a re-analysis of the deposited data

How the results depend on the processing

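Over 18 alternatives 0 cadherin or catenin probe sets were called in limma after adjustment. The fits held 6 to 15 of these probe sets, or 9 genes where probe sets were averaged. The unadjusted count under 0.05 was 0 in every fit, except for 1 (Cdh4) without knockout replicate 2. There 9.54% of all tested probe sets reached that p, and over the alternatives 4.7% to 11% did. The median difference of these probe sets lay between -0.01 and 0.15, the ends being reached by leaving out single arrays. The Ncam1 difference lay between -2.46 and -1.47 and passed throughout. The 2 calls over all probe sets became 1 with quantile normalisation, median centring, no filter, no intensity trend or averaged probe sets per gene and 4 with array weights, and were 1 to 3 when single arrays were left out. The cause was not tested. The count of 11 probe sets, from 9 genes, lower at 3 months was 6 to 11 when single arrays were left out, an alternative added after seeing the data. With the replicate number as a block the median was 0.06 and 0 of the probe sets were called, with a lowest adjusted p of 0.607. The 84 related genes gave 0 calls in 17 alternatives. Probe sets of low signal are limited by background, and Cdh8 and the dim probe sets of Cdh4 and Ctnna1 could not be judged.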
